A study of Mus musculus with 4 samples.

Results

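Imprinted genes are expressed from only one parental copy, and 36 genes of well-known imprinted loci of the mouse were examined among the 24346 gene symbols listed for each library. The members were chosen by name, as genes of such loci, at a time when their values in these libraries were already known, and all 36 had a row in every library. RNA was sequenced from 4 libraries of hair follicle stem cells (HFSCs), which had been sorted from the back skin of adult C3H/HeN mice by their surface CD49f and CD34 and then passaged weekly in the serum-free medium M-CnT. The 2 groups were cells after 10 passages (10p-HFSCs) and cells after 48 passages (48p-HFSCs), with 2 libraries each and no other treatment. The sources used here do not state whether the libraries of a group came from separate cultures, so the spread between them may be technical, and both groups stand for cells grown without their niche.

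At an imprinted locus, a control region carries DNA methylation on the copy from one parent. This mark is set in the germ line, escapes the erasure that follows fertilization, and is copied at each cell division. It directs the expression of whole clusters of neighbouring genes, some from the maternal copy and others from the paternal copy, and many of these genes act on growth, placental function or the brain. C3H/HeN is an inbred strain and the deposited values are sums per gene, so the 2 parental copies were not told apart. Below, maternally or paternally expressed means the copy from which a gene is known to be transcribed, in some cases only in the placenta or in neurons.

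Of the 36 members, 9 were listed at 0 in all 4 libraries, 13 were above 0 in some library but under an FPKM of 1 in all of them, and 3 reached 1 in a single library. FPKM is a fragment count scaled by the length of the transcript and by the size of the library. The remaining 11 members reached 1 in 2 or more libraries, which was the filter on low values, and entered a limma fit over 11018 genes on the log2(FPKM + 1) scale. Calls required a log2 difference of 1 or more in either direction and a p-value under 0.05 after Benjamini-Hochberg adjustment. Cd81, Tssc4 and Snrpn were called higher in 48p-HFSCs, Phlda2 and Igf2r were called lower, and 6 members were not called. Of all genes tested, 19.9% were called, 10.8% higher and 9.15% lower, in numbers 1189 and 1008, a split that turned to 620 and 820 when the libraries were rescaled to the same summed FPKM. Since the members were proposed with this comparison in view, their calls and differences are a description, and no p-value is given for them. The 5 called genes lie in 3 of the 15 loci to which the members belong, the Kcnq1 domain, the Snrpn-Ube3a region and the Igf2r-Airn locus, while 9 loci had no member that passed the filter.

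The called members did not share a known parental direction. Of the 7 tested members known as maternally expressed, 2 were called higher and 2 lower. Of the 3 tested members known as paternally expressed, 1 was called higher and 2 were not called. These labels do not tell which copy was transcribed in these cells. Ube3a, 1 of the 7, is expressed from both copies outside neurons. The median log2 difference of the 11 tested members was -0.22, and that of all genes tested was -0.03. Over all genes tested, 10.8% were called higher and 9.15% lower. Passing the filter can itself depend on the group in which a gene is high. Among the called members, Tssc4 and Snrpn passed it only through 48p-HFSCs, and Phlda2 only through 10p-HFSCs.

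Before the values, the promoter windows of the 5 called members are printed, because methylation of CpG dinucleotides is the mark on which imprinting rests. That mark lies at control regions, which for Phlda2, Cd81 and Tssc4 is the promoter of Kcnq1ot1. A printed window therefore need not carry it. Each window runs from 250 bases before to 50 bases after a RefSeq transcript start on GRCm38.p6, the assembly that mm10 also denotes, and is written 5′ to 3′ with CpG in capitals. For Snrpn, which has several starts, the window nearest to the annotated start of Snurf is shown, since both genes share their first exons.
Snrpn, chr7:60005150-60005449, minus strand: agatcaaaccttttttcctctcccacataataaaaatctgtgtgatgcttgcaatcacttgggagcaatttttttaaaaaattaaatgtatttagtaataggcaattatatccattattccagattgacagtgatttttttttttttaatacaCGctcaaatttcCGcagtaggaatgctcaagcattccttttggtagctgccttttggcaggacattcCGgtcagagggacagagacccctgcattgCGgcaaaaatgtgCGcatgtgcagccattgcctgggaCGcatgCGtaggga
Phlda2, chr7:143502475-143502774, minus strand: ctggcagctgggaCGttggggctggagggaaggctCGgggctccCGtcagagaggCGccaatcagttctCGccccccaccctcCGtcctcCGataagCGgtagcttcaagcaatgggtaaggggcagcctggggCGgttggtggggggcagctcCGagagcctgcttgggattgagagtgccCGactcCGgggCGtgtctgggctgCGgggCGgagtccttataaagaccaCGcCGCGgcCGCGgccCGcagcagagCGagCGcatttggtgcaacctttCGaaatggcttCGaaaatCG
Cd81, chr7:143052500-143052799, plus strand: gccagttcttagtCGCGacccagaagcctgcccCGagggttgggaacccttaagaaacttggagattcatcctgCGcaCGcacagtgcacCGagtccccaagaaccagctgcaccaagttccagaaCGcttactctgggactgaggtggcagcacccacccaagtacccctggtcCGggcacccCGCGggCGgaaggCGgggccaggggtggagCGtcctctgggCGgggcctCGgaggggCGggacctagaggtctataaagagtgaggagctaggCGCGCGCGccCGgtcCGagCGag
Tssc4, chr7:143069118-143069417, plus strand: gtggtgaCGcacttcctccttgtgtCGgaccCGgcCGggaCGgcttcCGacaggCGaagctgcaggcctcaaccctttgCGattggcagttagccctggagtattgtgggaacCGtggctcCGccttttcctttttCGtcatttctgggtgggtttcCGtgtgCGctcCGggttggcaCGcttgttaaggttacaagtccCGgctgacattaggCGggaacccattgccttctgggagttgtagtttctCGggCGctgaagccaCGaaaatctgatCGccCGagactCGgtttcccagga
Igf2r, chr17:12769657-12769956, minus strand: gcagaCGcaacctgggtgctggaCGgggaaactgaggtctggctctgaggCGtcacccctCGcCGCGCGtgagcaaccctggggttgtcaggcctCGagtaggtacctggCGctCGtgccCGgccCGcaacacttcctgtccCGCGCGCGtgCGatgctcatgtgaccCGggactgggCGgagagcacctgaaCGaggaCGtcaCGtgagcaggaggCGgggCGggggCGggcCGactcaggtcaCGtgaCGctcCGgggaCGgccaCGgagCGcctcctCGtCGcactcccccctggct
The windows of Igf2r, Phlda2, Cd81 and Tssc4 hold 34, 26, 23 and 23 CpG, and that of Snrpn holds 7, which is also the median over all 32851 windows of the RefSeq table. The hexamer TGCCGC, which ZFP57 binds when it is methylated, was searched on both strands. It contains a CpG and so overlaps the capitals. It was found in the Snrpn window and in none of the other 4, in 11 of 48 windows of the 31 members that have one (22.9%), and in 11.6% of all windows. Several windows of one gene can overlap, as those of Mest do. These counts describe letters only, as DNA methylation was not measured here.

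**Figure D1:**
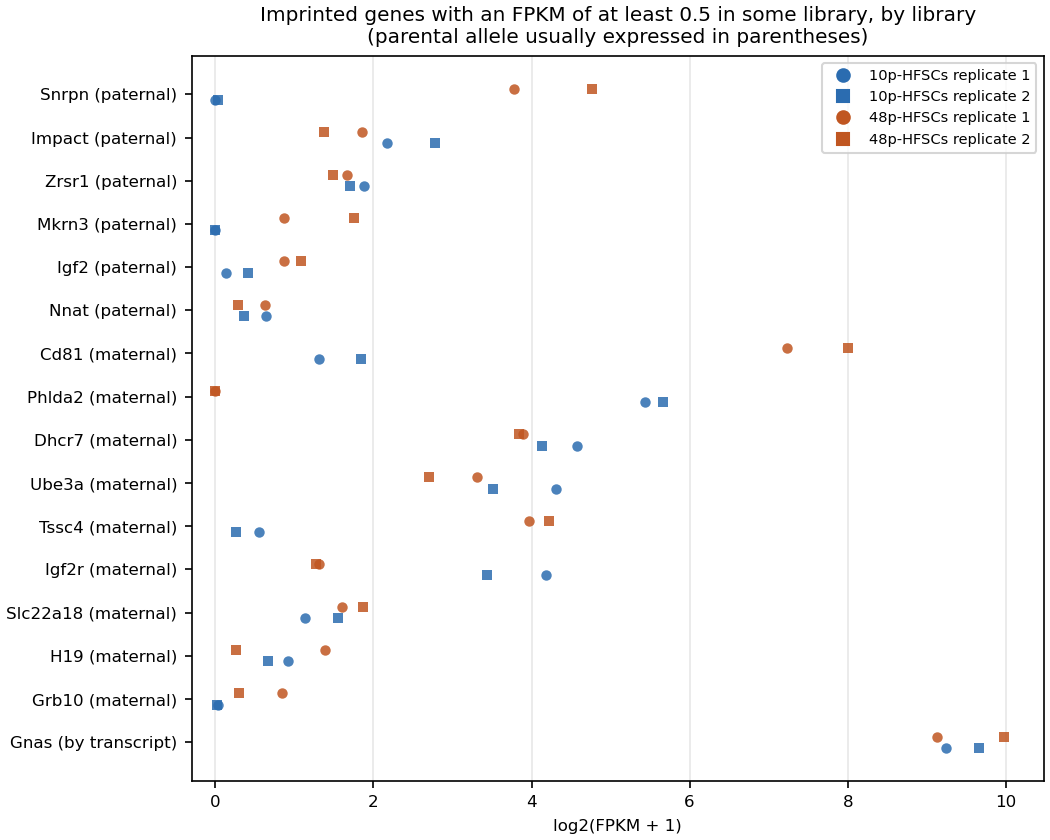
The log2(FPKM + 1) of the imprinted genes that reached an FPKM of 0.5 in some library, with a point for each library (circles replicate 1, squares replicate 2, blue 10p-HFSCs, orange 48p-HFSCs) and genes grouped by the parental copy they are known to be expressed from. Snrpn, Cd81 and Tssc4 lie far to the right in both 48p-HFSC libraries, Phlda2 and Igf2r in both 10p-HFSC libraries, and Gnas overlaps between groups.

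The Kcnq1 domain on distal chromosome 7 held the most tested members, 5 of 8. Its control region is the promoter of Kcnq1ot1, a long noncoding RNA made from the paternal copy that silences the neighbouring genes on that copy in cis. Phlda2, at chr7:143501545-143503150, encodes a pleckstrin homology domain protein that restrains growth of the placenta. It had an FPKM of 42.2 and 49.8 at 10 passages and was listed at 0 in both libraries of 48 passages. The gene was thus among the well expressed genes in one group and undetected in the other, so no fold change can be given, and its fitted log2 difference moved from -5.55 to -8.84 with a pseudocount of 0.1 in place of 1. Cd81, at chr7:143052739-143067934, encodes a tetraspanin, a membrane protein that organizes signalling complexes. It had an FPKM of 1.49 and 2.59 at 10 passages, and of 149 and 255 at 48 passages. The groups were far apart, with means of 2.04 ± 0.78 (SD, n = 2) and 202 ± 75 (SD, n = 2), a 99.0-fold ratio and a log2 difference of 6.03 (standard error 0.36). Tssc4, at chr7:143069249-143071093, lies next to Cd81 and encodes a factor for assembly of spliceosomal particles. It had an FPKM of 0.46 and 0.20 at 10 passages, and of 14.6 and 17.7 at 48 passages. Again every 48p-HFSC library lay above both 10p-HFSC libraries, with means of 0.328 ± 0.186 (SD, n = 2) and 16.2 ± 2.22 (SD, n = 2), a 49.2-fold ratio and a log2 difference of 3.69 (standard error 0.28). The 10p-HFSC values of Tssc4 lie below the 1 added to each FPKM, which lowers its log2 difference (5.31 with a pseudocount of 0.1). The calls of Cd81 and Phlda2 were kept with any library left out. That of Tssc4 was lost without replicate 1 or replicate 2 of 10p-HFSCs, with log2 differences of 3.84 and 3.55, in fits that called 35 and 36 genes higher and 140 and 146 lower in all.

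The other members of the domain did not follow either pattern. Slc22a18, an organic cation transporter-like gene next to Phlda2, had an FPKM of 1.20 and 1.94 at 10 passages and of 2.04 and 2.65 at 48 passages. Its groups did not overlap, but the log2 difference of 0.39 (standard error 0.28) was not called. Dhcr7, which encodes the enzyme of the last step of cholesterol synthesis, had an FPKM of 22.8 and 16.5 at 10 passages and of 13.9 and 13.3 at 48 passages, a log2 difference of -0.48 (standard error 0.28) that was not called. Cdkn1c, the cell cycle inhibitor p57, reached at most an FPKM of 0.029, and Ascl2, a basic helix-loop-helix factor of the trophoblast, was listed at 0 in all libraries. Kcnq1ot1 itself had an FPKM of 0.012 and 0.0057 at 10 passages, and of 0.136 and 0.186 at 48 passages. Both 48p-HFSC values were the higher ones, but all 4 lay far under 1 and were not tested. Kcnq1ot1 lies wholly within Kcnq1 on the opposite strand, and the sources do not state whether strand was used in counting.

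Genes around these members were examined within 300 kb of the outermost ones, a window set after the values were seen. Of 15 genes there that stand in neither list of imprinted genes, 6 were tested, 2 of which were called higher and 1 lower. The shares over all genes tested were 10.8% and 9.15%. R74862, which overlaps the first 948 bases of Cd81 on the opposite strand, was at 0.024 and 0.068 at 10 passages and at 1.97 and 2.76 at 48 passages, and rose (limma adjusted p = 0.0075). It passed the filter only through 48p-HFSCs, so its p-value is a description. The libraries were made with a stranded kit, but the strand setting of the counting is not stated, so how reads of R74862 and of the start of Cd81 were assigned is not known here. Cars, a tRNA synthetase gene, rose from 35.7 and 36.5 to 65.7 and 104 (limma adjusted p = 0.047), and Tnfrsf22, a decoy death receptor, fell from 13.1 and 8.30 to 1.99 and 0.71 (limma adjusted p = 0.012). Trpm5, whose span includes the whole of Tssc4 on the opposite strand, was at 0.13 and 0.15 in 10p-HFSCs and listed at 0 in 48p-HFSCs. Members called in opposite directions were therefore found along one domain, with genes that were not called between them and beside them. The median log2 difference of the 811 tested genes of chromosome 7 was 0.08.

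**Figure D2:**
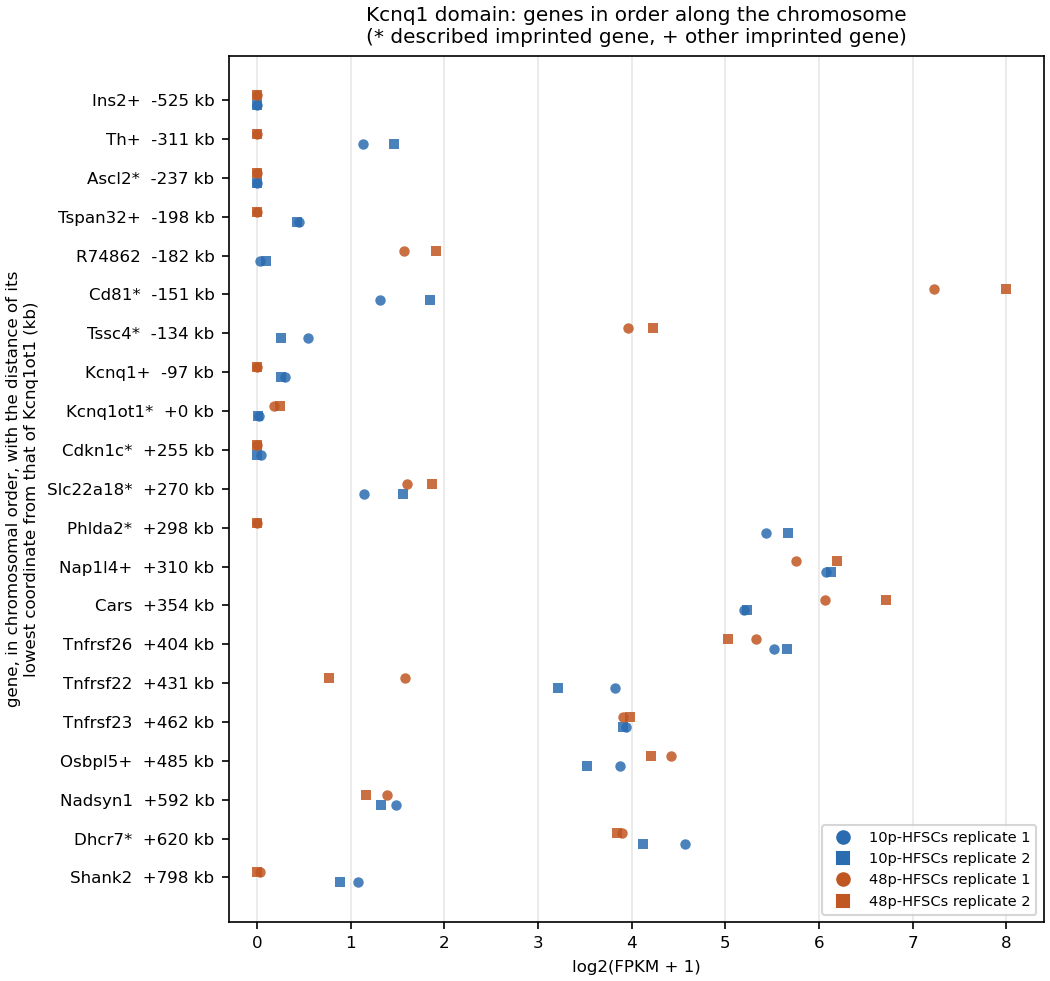
The log2(FPKM + 1) of genes in the Kcnq1 domain and 300 kb to each side, in their order on the chromosome, with the distance from Kcnq1ot1 in kb beside each name and a point for each library. Cd81 and Tssc4 on one side of Kcnq1ot1 have high values in 48p-HFSCs, and Phlda2 on the other side has high values in 10p-HFSCs, next to Nap1l4, whose groups overlap.

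In the Snrpn-Ube3a region of chromosome 7, the counterpart of the human Prader-Willi and Angelman region, 2 of 5 members were tested. Snrpn, at chr7:59982495-60140219, encodes the spliceosomal protein SmN and starts at the control region of the cluster. At 10 passages it was listed at 0 in one library and at 0.020 in the other, and at 48 passages it had an FPKM of 12.7 and 26.1. The gene was thus all but undetected at 10 passages, and no ratio is given because it would rest on one value near 0. The log2 difference was 4.25 (standard error 0.38) and became 7.38 with a pseudocount of 0.1, so its size depends on the value added. The call was lost without replicate 1 or replicate 2 of 10p-HFSCs, with log2 differences of 4.24 and 4.27. Snrpb, which encodes the closely related protein SmB and could share reads with Snrpn, had an FPKM of 214 and 223 at 10 passages and of 141 and 185 at 48 passages. How reads that match both genes were assigned is not stated, and their part in the Snrpn values was not tested.

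Mkrn3, a RING finger gene of the same cluster at chr7:62417593-62420139 that restrains the onset of puberty, did not pass the filter. It was listed at 0 in both libraries of 10 passages, and its FPKM at 48 passages was 0.83 and 2.37. The 2 members that lie beside Mkrn3, Ndn and Magel2, were listed at 0 in all 4 libraries, so not all paternally expressed genes of the cluster were detected at 48 passages. Ube3a, at the other end of the region, encodes a ubiquitin ligase that is expressed from the maternal copy in neurons and from both copies elsewhere. It had an FPKM of 18.9 and 10.4 at 10 passages and of 8.93 and 5.52 at 48 passages. Every 48p-HFSC library lay below the 10p-HFSC libraries, and the log2 difference of -0.90 (standard error 0.39) was not called. Of the further paternally expressed genes of the cluster, Snurf, which shares exons with Snrpn so that reads could be assigned to either, rose from 0 and 0.018 to 1.33 and 1.55 (limma adjusted p = 0.013). Snurf passed the filter only through 48p-HFSCs, so its p-value is a description. Snhg14, the long noncoding RNA whose end runs antisense to Ube3a, was listed at 0 in both libraries of 10 passages, had an FPKM of 1.48 and 0.84 at 48 passages, and was not tested. Peg12 was listed at 0 throughout.

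**Figure D3:**
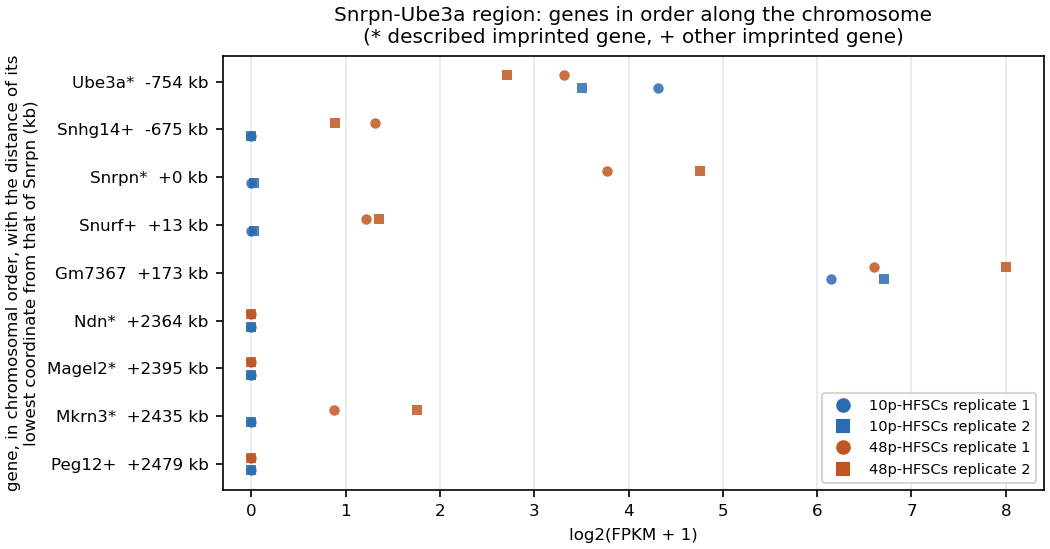
The log2(FPKM + 1) of genes in the Snrpn-Ube3a region and 300 kb to each side, in their order on the chromosome, with the distance from Snrpn in kb beside each name and a point for each library. Snrpn, Snurf, Snhg14 and Mkrn3 are near or at 0 in both 10p-HFSC libraries and above 0 in both 48p-HFSC libraries, while Ndn, Magel2 and Peg12 lie at 0 in all 4.

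At the third locus, Igf2r, at chr17:12682406-12769664, encodes the mannose 6-phosphate receptor, which carries enzymes to lysosomes and removes the growth factor IGF2. It had an FPKM of 17.1 and 9.85 at 10 passages, and of 1.49 and 1.42 at 48 passages. The 48p-HFSC libraries were close to each other and both lay below the 10p-HFSC libraries, with means of 13.5 ± 5.13 (SD, n = 2) and 1.45 ± 0.05 (SD, n = 2), a 9.29-fold lower mean and a log2 difference of -2.52 (standard error 0.34). The call was lost without replicate 1 or replicate 2 of 10p-HFSCs, with log2 differences of -2.15 and -2.89. Airn, the antisense RNA that silences Igf2r on the paternal copy and overlaps it over 28354 bases, reached at most an FPKM of 0.070. Slc22a2 and Slc22a3, which Airn silences in the placenta, were listed at 0. Of 6 tested genes outside the lists within 300 kb, Wtap was called lower, from 42.7 and 46.5 to 21.9 and 15.5 (limma adjusted p = 0.029), and the other 5 were not called. Over all genes tested, 9.15% were called lower. Igf2, the ligand, did not pass the filter, with an FPKM of 0.098 and 0.333 at 10 passages and of 0.83 and 1.11 at 48 passages. H19, the noncoding RNA reciprocal to Igf2, had an FPKM of 0.89 and 0.59 at 10 passages and of 1.61 and 0.20 at 48 passages. The 48p-HFSC values of H19 lay on both sides of those of 10p-HFSCs, and together with Mkrn3 these genes were the 3 members that reached an FPKM of 1 in 1 library.

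The other 3 tested members lie at loci of their own or in small clusters and were not called. Gnas, the gene of the stimulatory G protein alpha subunit, was the most abundant member in 10p- and 48p-HFSCs alike, with an FPKM of 604 and 806 at 10 passages and of 559 and 1010 at 48 passages. Its libraries overlapped between groups, and the log2 difference of 0.11 (standard error 0.54) changed sign under rescaling to the same summed FPKM (-0.48) and without replicate 1 of 10p-HFSCs (-0.10) or replicate 2 of 48p-HFSCs (-0.32). As Gnas yields maternal, paternal and biallelic transcripts under one symbol, a shift among them would not be seen. Impact, an inhibitor of the kinase GCN2, had an FPKM of 3.51 and 5.84 at 10 passages and of 2.61 and 1.59 at 48 passages, a log2 difference of -0.86 (standard error 0.34). Zrsr1, a splicing factor gene that arose as a retrocopy of Zrsr2 and could share its reads, had an FPKM of 2.69 and 2.26 at 10 passages and of 2.17 and 1.81 at 48 passages. The groups did not overlap for Impact or Zrsr1, which was also the case for 10 of the 11 tested members, 4 with higher and 6 with lower values in 48p-HFSCs. Among all genes tested, 31.7% had every 48p-HFSC library above and 34.3% below both 10p-HFSC libraries.

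Many imprinted genes that are known for high levels in the embryo or placenta were hardly detected at either passage. Peg3, Zim1 and Usp29 of the Peg3 domain, Peg10, Plagl1 and Dlk1 were among the 9 members listed at 0 in all 4 libraries. Sgce, Ppp1r9a and Asb4 beside Peg10 reached at most 0.10, and Mest, a member of the hydrolase family, reached 0.081. At the Dlk1-Meg3 locus the noncoding RNAs Meg3, Rian and Mirg reached at most 0.19. Grb10, an adaptor that dampens insulin and IGF signalling, was at 0.021 and 0.015 at 10 passages and at 0.79 and 0.23 at 48 passages, with both 48p-HFSC values the higher ones, but it did not pass the filter. Nnat was at 0.56 and 0.28 at 10 passages and at 0.55 and 0.22 at 48 passages, and Nap1l5 reached at most 0.25.

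A further 42 genes of imprinted loci that are not among the members were read from the same fit. Of these, 13 were listed at 0 in all libraries and 17 were tested, of which 5 were called higher, 1 lower and 11 not. Of all genes tested, 10.8% were called higher and 9.15% lower. The paternally expressed Sfmbt2, a polycomb group gene, was listed at 0 in both libraries of 10 passages, against 2.88 and 2.12 at 48 passages, a log2 difference of 1.80 (limma adjusted p = 0.0055, standard error 0.24). Ampd3, which encodes AMP deaminase and is maternally expressed in the placenta, was at 0.21 and 0.14 at 10 passages and at 9.58 and 3.11 at 48 passages, a log2 difference of 2.49 (limma adjusted p = 0.017, standard error 0.46). Both 48p-HFSC values were above those of 10p-HFSCs but far from each other, and the call was lost without the filter on low values (limma adjusted p = 0.057). Smoc1, a gene of a secreted calcium-binding protein, was at 2.01 and 1.76 at 10 passages and at 8.85 and 7.66 at 48 passages, a log2 difference of 1.68 (limma adjusted p = 0.010, standard error 0.26), which was no longer called under rescaling to the same summed FPKM (limma adjusted p = 0.25). Th, the tyrosine hydroxylase gene between Igf2 and Ascl2, was at 1.20 and 1.76 in 10p-HFSCs and listed at 0 in 48p-HFSCs, and was called lower (log2 difference -1.30, limma adjusted p = 0.015, standard error 0.23). Trappc9, a trafficking complex gene, was called higher with 7.60 and 7.70 against 14.7 and 21.0 (limma adjusted p = 0.046), a call that 4 alternatives other than leaving out a library removed. Snurf was the other gene called higher. Sfmbt2, Ampd3 and Snurf passed the filter only through 48p-HFSCs, and Th only through 10p-HFSCs. As the list was also drawn up with earlier results known, the adjusted p-values given for these genes are a description. With a pseudocount of 0.1 the log2 differences grew to 4.69 for Sfmbt2, 4.34 for Ampd3, 3.82 for Snurf and -3.95 for Th. When either 10p-HFSC library was left out, each of these 6 calls was lost. Those of the same loci as called members were not alike, since Nap1l4 beside Phlda2 was at 66.2 and 68.8 at 10 passages and at 53.1 and 72.4 at 48 passages, and Osbpl5 had a log2 difference of 0.61 (standard error 0.27) that was not called.

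**Figure D4:**
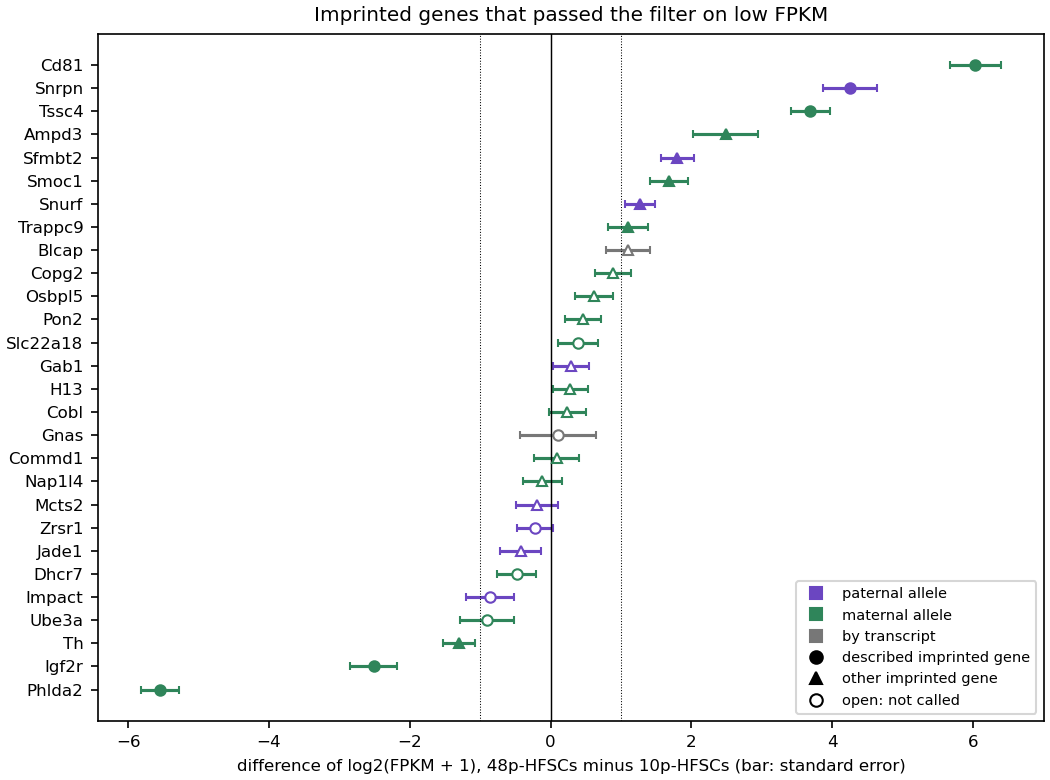
Difference of log2(FPKM + 1) between 48p- and 10p-HFSCs with its standard error for the 11 tested members (circles) and the 17 other tested imprinted genes (triangles), colored by the parental copy they are known to be expressed from, with filled symbols for called genes and dotted lines at the limit of 1. The values run from Phlda2 at -5.55 to Cd81 at 6.03, both listed as maternally expressed, though the copies were not told apart here. With a pseudocount of 0.1, Snrpn (7.38), listed as paternally expressed, stands above Cd81 (6.56).

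Of 16 factors that set, read or protect imprints or act in the removal of DNA methylation, 10 were tested, and limma called 1 lower and 0 higher. Of all genes tested, 9.15% were called lower and 10.8% higher. An unadjusted limma p-value under 0.05 was found for 5 factors in the lower and 0 in the higher direction, against 2079 lower and 2039 higher of the 11018 genes tested. Tet3, which acts in removal, was among these 5. As this list too was drawn up with earlier results known, its counts and the p-values given for these factors are a description. Dnmt3a, the de novo DNA methyltransferase that sets imprints in the germ line, fell from an FPKM of 3.14 and 2.44 to 0.025 and 0.012. Its log2 difference was -1.89 (limma adjusted p = 0.0046, standard error 0.23), and it passed the filter only through 10p-HFSCs. The call was lost without replicate 1 of 10p-HFSCs (log2 difference -1.76), and the log2 difference was -4.60 with a pseudocount of 0.1. Dnmt3b, a related methyltransferase, went the other way, from 1.33 and 1.07 to 3.41 and 1.76. Its log2 difference of 0.67 (standard error 0.31) was not called. Zfp57, a zinc finger protein that keeps methylation at imprinted control regions in the early embryo, was listed at 0 in all libraries. Zfp445, its partner in this role, was at 26.2 and 22.4 at 10 passages and at 12.97 and 4.90 at 48 passages, a log2 difference of -1.48 (limma adjusted p = 0.067, standard error 0.44) that was not called. Dnmt1, which copies methylation at each division, was at 33.4 and 21.8 at 10 passages and at 20.9 and 22.4 at 48 passages, so that its groups overlapped. Ctcf, the insulator protein that separates Igf2 from its enhancers on the maternal copy, was at 33.5 and 28.8 at 10 passages and at 16.9 and 16.6 at 48 passages (log2 difference -0.85, limma adjusted p = 0.059). Without replicate 1 of 48p-HFSCs, 3 of these factors were called lower (Dnmt3a, Zfp445 and Tet3), and without replicate 2 of that group 2 were lower and 1 was higher.

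Some markers of cell type moved with the groups. Of 10 markers of basal keratinocytes and the hair follicle, Krt5, Krt14, Itga6 and Trp63 were expressed in every library, but Cd34 was at most at 0.23 and Lhx2 at 0.024, so the RNA of the marker used for sorting was near absent in both groups. The 10 summed to an FPKM of 3933 and 3243 at 10 passages and of 12974 and 8069 at 48 passages, most of it Krt5 and Krt14, neither of which was called. The markers did not move together, as 1 was called higher and 1 lower. Itga6, which encodes CD49f, rose from 31.4 and 20.8 to 100.998 and 79.0 (limma adjusted p = 0.014), and Sox9, a factor of hair follicle stem cells, fell from 45.6 and 44.2 to 20.2 and 8.31 (limma adjusted p = 0.039). The paper gives a different picture of these markers. It found most cells positive for CD34 protein at 10 and at 48 passages. By qRT-PCR it reported maintained Cd34 and a significant increase of Lhx2 and Sox9 in 48p-HFSCs. The reason for this difference was not tested. Epcam had lower values at 48 passages, 150 and 238 against 338 and 288, and was not called, and Krt15 was at 425 and 18.8 there, on both sides of its values at 10 passages. The 11 mesenchymal markers summed to an FPKM of 353 and 388 at 10 passages and to 5.88 and 4.17 at 48 passages. At 10 passages nearly all of this was Vim and Col1a2, which were called lower. Twist2 went the other way without passing the filter, from 0.044 and 0.062 to 3.35 and 0.85, and made up much of the sum in replicate 1 of 48p-HFSCs. Of the others, Dcn, Lum, Thy1 and Twist1 were listed at 0 in all libraries. Col1a1 and Pdgfra were under 1 in all but higher at 10 passages. Col1a1 was at 0.90 and 0.74 against 0.052 and 0.047, and Pdgfra at 0.28 and 0.075 against 0 in both 48p-HFSC libraries. The 5 leukocyte markers summed to 0.64 and 0.69 at 10 passages and to 64.3 and 104 at 48 passages, mostly Cd74, which was called higher. Lyz2 was also called higher, from 0.29 and 0.48 to 3.04 and 1.96. Cd74 and Lyz2 passed the filter only through 48p-HFSCs. Cd3e and Tyrobp were listed at 0, and Ptprc was at most at 0.071. The 3 endothelial markers summed to at most 2.38 and the 4 melanocyte markers to at most 1.56. The part of these changes in the values of the imprinted genes was not tested, and in bulk RNA fewer cells that express a gene and less RNA per cell cannot be told apart.

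Summed FPKM was between 581516 and 719012 in 3 libraries and 1414953 in replicate 2 of 48p-HFSCs. Relative depth, from the most common ratio of low FPKM values, was lowest in that library too, at 46.7% of replicate 1 of 10p-HFSCs. Low values, which most members have, are least precise there, and the absolute depth is unknown. With 2 libraries a group, an exact two-sided permutation test of a single gene cannot fall under p = 0.333, so the calls depend on the spread that limma borrows from other genes.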

How the data were processed

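Polyadenylated RNA of 2 libraries each of 10p- and 48p-HFSCs was sequenced from one end after stranded (TruSeq) library preparation. The authors aligned the reads to mm10 and deposited FPKM values per gene symbol. The submitters' processing notes name TopHat2 2.1.1, Bowtie2 2.2.8, SAMtools 0.1.18 and Cuffdiff 2.2.1, and the paper names other versions of Bowtie2 and SAMtools. Annotation, strand setting and treatment of reads with several matches are not given in the sources used here. FPKM values are not counts, so no count test was run.

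After adding 1 and taking log2, genes that reached an FPKM of 1 in 2 or more libraries were fitted with limma (version 3.58.1, R 4.3.3, variance trend, Benjamini-Hochberg adjustment over 11018 genes, calls at 0.05 and a log2 difference of 1 or more). The script was tested on simulated data under 3 assumptions on the spread between libraries. Fitted differences matched the simulated ones under each. The simulated data followed the fitted model, so this match says little about the real libraries. It became the criterion after an earlier one, on the share of changed genes called, had failed under all but the most favourable spread. That share depended strongly on the spread assumed, so a gene that was not called may still differ. Positions came from GENCODE M21 (GRCm38), which held 95.7% of the symbols, and promoter windows from RefSeq.

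Members and lists were chosen with earlier results of these data known. Members are described with each library's value where a group mean reached 1, and otherwise by range or, where singled out, by value. Of the other imprinted genes and the imprint factors, the called ones are named. Windows around loci, printed promoters, the hexamer, close copies, ratios of mean FPKM and further genes named were chosen after the values were seen. Alternatives were a pseudocount of 0.1, no filter, rescaling to the same summed FPKM (TPM), median-of-ratios scaling, a constant variance prior, a replicate block and leaving out each library. An earlier version set the filter anew for each alternative. After its output was seen, the set of genes from the 4 deposited libraries was kept throughout, except without the filter, so that a single choice changed at a time.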

Additional observations from a re-analysis of the deposited data

How the results depend on the processing

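The counts of called members, 3 higher and 2 lower, were the same under a pseudocount of 0.1, no filter, TPM rescaling, median-of-ratios scaling, a constant variance prior and the replicate block. Members under an FPKM of 1 in all libraries could not enter these counts in any of those settings. The size of differences of genes near 0 in one group depends on the pseudocount, as given beside them. When single libraries were left out, they lay between 1 and 3 higher and between 1 and 2 lower. The log2 difference then lay between 3.76 and 4.75 for Snrpn, 3.55 and 3.84 for Tssc4, and -2.89 and -2.15 for Igf2r. That of Gnas lay between -0.32 and 0.53, was -0.10 without replicate 1 of 10p-HFSCs, and was -0.48 under TPM rescaling, which moved the median difference of all genes by -0.51. TPM rescaling moved the count of all genes called higher from 1189 to 620 and that of other imprinted genes from 5 to 3. Without the filter 637 genes were called lower, against 1008. Labels give both groups replicate numbers 1 and 2 without saying what they mark. Deviations from the group means correlated between libraries of one number (r = 0.408), and no statement of shared preparation was found. With the replicate block, imprint factors called lower numbered 3 (Dnmt3a, Zfp445 and Tet3) instead of 1, all genes called numbered 1613 higher and 1497 lower, and the counts of called members were unchanged. Leaving out a library gave between 35 and 1936 genes called higher and between 140 and 1875 lower, with the lowest counts without a 10p-HFSC library, where the lone library is assumed to vary like the other group. Other imprinted genes then numbered between 0 and 6 higher and between 0 and 1 lower, and factors between 0 and 1 higher and between 0 and 3 lower. The cause of these moves was not tested. Had the filter been set anew for each alternative, other counts would follow. Members under an FPKM of 1 in all libraries allow no call in any of these settings. The filter leaves them out, and without it their log2(FPKM + 1) stays under 1, the limit for the difference. Their lack of a call was thus set by the method and does not show that they were unchanged.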
